A study of Acipenser schrenckii with 2 samples.

Results

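The miR-26, miR-29 and miR-101 families were followed in gonads of the Amur sturgeon, Acipenser schrenckii, on 2 Cy3 arrays. Their probes were chosen by name: a probe entered where its name, without the 3-letter species prefix, was miR-26, miR-29 or miR-101 with any letter, copy or arm. The families were picked with earlier male and female values of these arrays known, so counts over them describe the probes and support nothing further. The rule found 19 probes of 663 miRNA probes on the chip, of which 3 were miR-26, 8 miR-29 and 8 miR-101 probes. Every probe was read from 5 repeat spots on each array. One array carried the small RNA fraction of total RNA from the gonad of 1 female, and the other that of 1 male. Both samples were labelled normal, aged 11 months and described as early in sex differentiation. The series asks which miRNAs differ between the sexes.

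MicroRNAs guide Argonaute proteins to mRNAs through their seed (bases 2 to 8) and lower the output of those mRNAs. In mammals, miR-101 and miR-26 act on the mRNA of EZH2, the enzyme of Polycomb repressive complex that methylates histone H3. miR-29 acts there on mRNAs of de novo DNA methyltransferases and on those of collagens and other matrix proteins. In vertebrates, miR-26 genes lie within introns of phosphatase genes of the CTDSP family. No target mRNA was measured here.

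The targets that the probes read are printed because their close likeness sets how the values below can be read. They are the RNA sequences that the array files give for the probes, 5′ to 3′, with bases 2 to 8 in capitals. The prefixes name the fish for which a probe was built (dre zebrafish, ccr common carp, ipu channel catfish, ola medaka, hhi Atlantic halibut), so a probe does not show that the sturgeon holds exactly that sequence.
The 3 miR-26 targets had 1 seed.
hhi-miR-26: uUCAAGUAauccaggauaggc
dre-miR-26a: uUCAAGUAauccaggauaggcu
dre-miR-26b: uUCAAGUAauccaggauagguu
Of the miR-29 targets, 4 had the seed AGCACCA and 1 started a base later.
dre-miR-29b: uAGCACCAuuugaaaucagugu
ccr-miR-29b: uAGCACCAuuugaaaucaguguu
dre-miR-29a: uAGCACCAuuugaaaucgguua
ola-miR-29c: uAGCACCAuuugaaaucg
ola-miR-29a: aGCACCAUuugaaaucgguuac
Of the miR-101 targets, 3 had the seed ACAGUAC and 3 started a base earlier.
dre-miR-101a: uACAGUACugugauaacugaag
dre-miR-101b: uACAGUACuaugauaacugaag
ipu-miR-101b: uACAGUACuaugauaacugaa
ola-miR-101a-3p: gUACAGUAcugugauaacuga
ola-miR-101b-3p: gUACAGUAcuaugauaacu
ccr-miR-101b: gUACAGUAcuaugauaacuga

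Within these groups the targets were near copies. dre-miR-101a and dre-miR-101b differed by G10A alone, counted from 1 at the 5′ end of dre-miR-101a. dre-miR-26a and dre-miR-26b differed by C21U, and hhi-miR-26 was dre-miR-26a without its last base. dre-miR-29a and dre-miR-29b differed by G18A, U21G and A22U, all beyond the seed. A starting point moved by a single base changes the seed: ola-miR-101a-3p, ola-miR-101b-3p and ccr-miR-101b had the seed UACAGUA, which ccr-miR-144 also had. No probe outside the families shared the seed UCAAGUA of miR-26, the seed AGCACCA of miR-29 or the seed ACAGUAC of miR-101. The remaining 5 probes read other sequences. ola-miR-101a-5p and ola-miR-101b-5p are, by name, the 5′ arm. ipu-miR-29a, ipu-miR-29b and ipu-miR-29c held no AGCACCA in bases 1 to 9, and their names give no arm. Arrays of such near copies cannot be counted as independent measurements of a family.

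With 1 fish and 1 array per sex there is no replicate check, no test between the sexes and no p-value. Values after ± are SDs over the 5 spots, which are technical. Levels are log2 intensities after background correction and quantile normalization, which gives both arrays 1 distribution. Detection on an array meant that at least 3 of the 5 spots lay above the 95th percentile of its 361 empty spots, which was 103 for the female array and 113 for the male. A probe counted as higher in a sex where it was detected there, its log2 levels lay 1 or more apart, and the spots of the arrays did not overlap. The brightness of a probe depends on its sequence, so levels of different probes are not set against each other as amounts of RNA. In whole gonads, more cells holding a miRNA and more of it per cell cannot be told apart.

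Signal for these families was present in both gonads. Of the 19 probes, 15 were detected on both arrays, ola-miR-101b-3p on the male array only, ipu-miR-29a on the female array only, and ola-miR-101a-5p and ipu-miR-29b on neither. The whole chip had 476 detected probes in the female and 430 in the male. The 416 probes detected on both were brighter in the male by a median log2 value of 0.45 before normalization, and normalized differences are relative to that shift. Of 3 probes for miR-202, a gonad-enriched miRNA of vertebrates, ipu-miR-202 was detected on both arrays and the other two on neither.

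**Figure D1:**
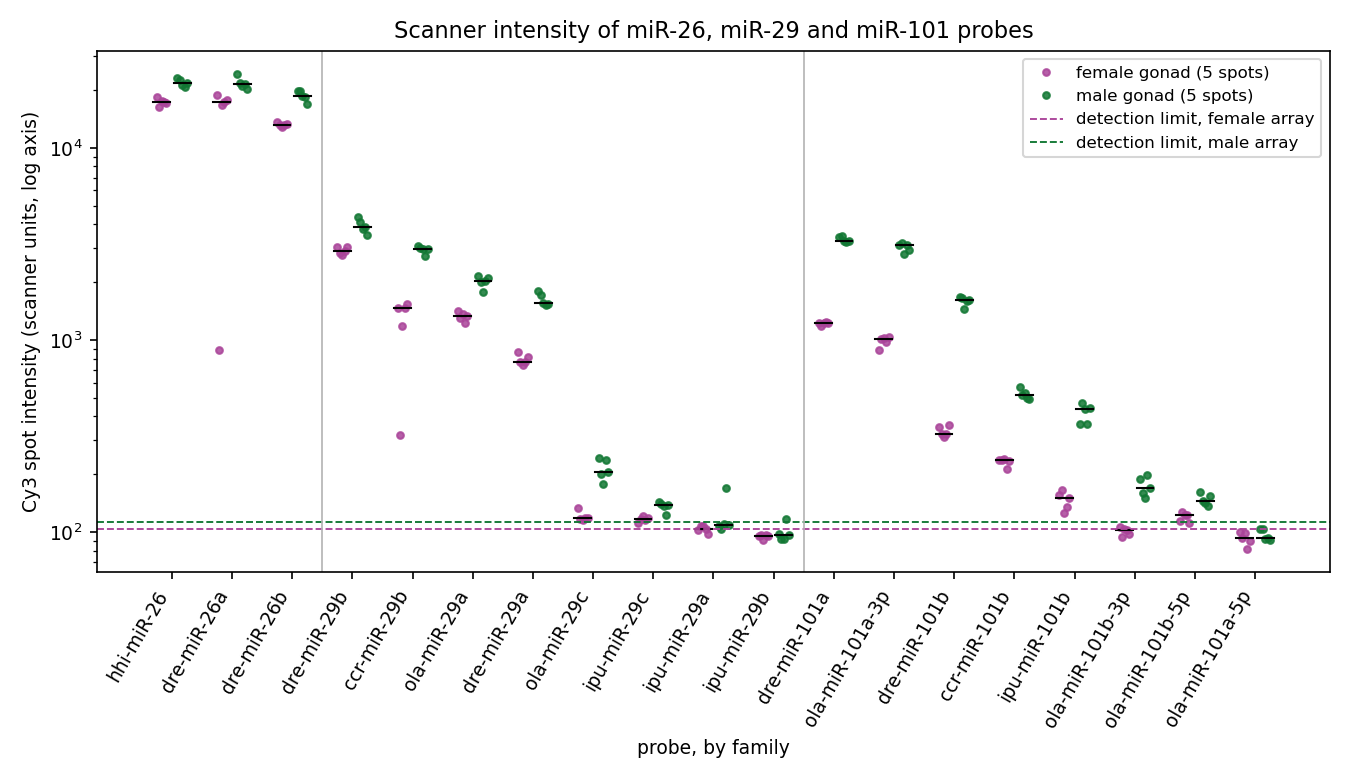
Cy3 intensity of each of the 5 spots (scanner units, log axis, before background correction and normalization) of the 19 probes on the female and male arrays. Black bars are medians over spots and dashed lines the detection limits of 103 and 113. On this scale the male array is brighter as a whole, so male spots above female spots are not by themselves read as a difference. Among the 19 probes, the widest gaps between male and female spots are those of miR-101 probes. Single low female spots stand apart at dre-miR-26a and ccr-miR-29b.

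miR-101 gave more signal in the male gonad. All 6 probes that hold ACAGUAC in bases 1 to 9 read higher on the male array. Their differences ran from 0.48 to 1.53 on the log2 scale, with a median of 0.94. None of their normalized spots overlapped between the arrays. On the whole chip, all male spots lay above all female spots for 19.4% of detected probes, and the reverse held for 23.7%. The range and median take ola-miR-101b-3p at its measured mean on the female array, where it was not detected. At its lower bound of 0.66 that probe still lies below the middle values, and the median is again 0.94. Its true difference could be larger, which could raise the median but not lower it. Of these 6, dre-miR-101b and ola-miR-101a-3p were past the rule as higher in the male. Over the 17 members detected on at least one array, these 2 were the only ones past the rule, and none was higher in the female. On the whole chip 23 of 490 detected probes (4.69%) were higher in the male, whereas 8 (1.63%) were higher in the female.

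dre-miR-101b had scanner intensities of 354, 324, 312, 326 and 361 on its female spots and of 1681, 1650, 1451, 1595 and 1622 on its male spots. The dimmest male spot was 4.02 times as bright as the brightest female spot. Normalized levels were 8.73 ± 0.09 (female) and 10.25 ± 0.08 (male, 5 spots each), a 2.88-fold higher level in the male. Its difference of 1.53 was the 6th highest of the 490 detected probes. After subtraction of the empty-spot median, and before normalization, the mean male intensity was 1519 and the female 248, a ratio of 6.12 beside a median ratio of 1.44 over the 416 probes detected on both arrays. The authors' deposited table gives 313.69 in the female and 1130.61 in the male, a ratio of 3.60.

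The probes for miR-101a, which lack the base change of miR-101b, stood on either side of the size limit. ola-miR-101a-3p had female spots of 884 to 1033 and male spots of 2805 to 3193. Its female level was 10.30 ± 0.09 and its male level 11.32 ± 0.08, a difference of 1.01 and a 2.02-fold higher level in the male. dre-miR-101a, the probe of the standard zebrafish form, had female spots of 1183 to 1242 and male spots of 3253 to 3493. It read 10.53 ± 0.03 and 11.43 ± 0.05, a difference of 0.90, which fell just short of the limit. These targets share 20 bases, and their differences lay 0.12 apart, so the limit of 1 parted near-equal values. Background subtracted and before normalization the male to female ratios were 3.28 and 2.88, and the authors' deposited table has 1.98 and 1.89.

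ipu-miR-101b and ccr-miR-101b also read higher in the male, by less than the limit, and ola-miR-101b-3p has only a lower bound. ipu-miR-101b, which is dre-miR-101b without its last base, had levels of 7.30 ± 0.18 (female) and 8.28 ± 0.17 (male), a difference of 0.98. ccr-miR-101b read 8.06 ± 0.08 and 8.54 ± 0.08, a difference of 0.48. ola-miR-101b-3p was not detected on the female array (spots of 94.6 to 107) and had male spots of 151 to 199. Its normalized means were 6.40 ± 0.08 and 7.08 ± 0.18. Measured from the lowest detected level of the female array, the male level was at least 1.58-fold higher under the reported setting. Over the alternatives, the difference of its measured means ran from 0.26 (75th percentile scaling) to 1.92 (plain background subtraction). The gap between ccr-miR-101b and dre-miR-101b was 1.04, beyond their spot SDs, although 20 bases of their targets are the same.

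The gap between ccr-miR-101b and dre-miR-101b was 1.03 without background correction, 1.05 with an offset of 16 and 1.08 with plain background subtraction. The background-subtracted ratio before normalization was 6.12 for dre-miR-101b, 5.65 for ipu-miR-101b and 3.04 for ccr-miR-101b. These probes had female intensities of 248, 59.4 and 145 above the empty-spot median. With an offset of 16 in place of 50 in the background correction, the difference of ipu-miR-101b was 1.17 in place of 0.98. In the authors' deposited table the male to female ratios were 3.60 for dre-miR-101b, 2.89 for ipu-miR-101b and 1.59 for ccr-miR-101b.

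The 5′ arm of miR-101 was near the limit of detection. ola-miR-101b-5p had female spots of 111 to 128 and male spots of 136 to 162, and read 6.80 ± 0.09 and 6.90 ± 0.11, with overlapping normalized spots. ola-miR-101a-5p was well above background on neither array, with normalized means of 6.23 ± 0.14 and 6.36 ± 0.11. No fold is given for it.

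**Figure D2:**
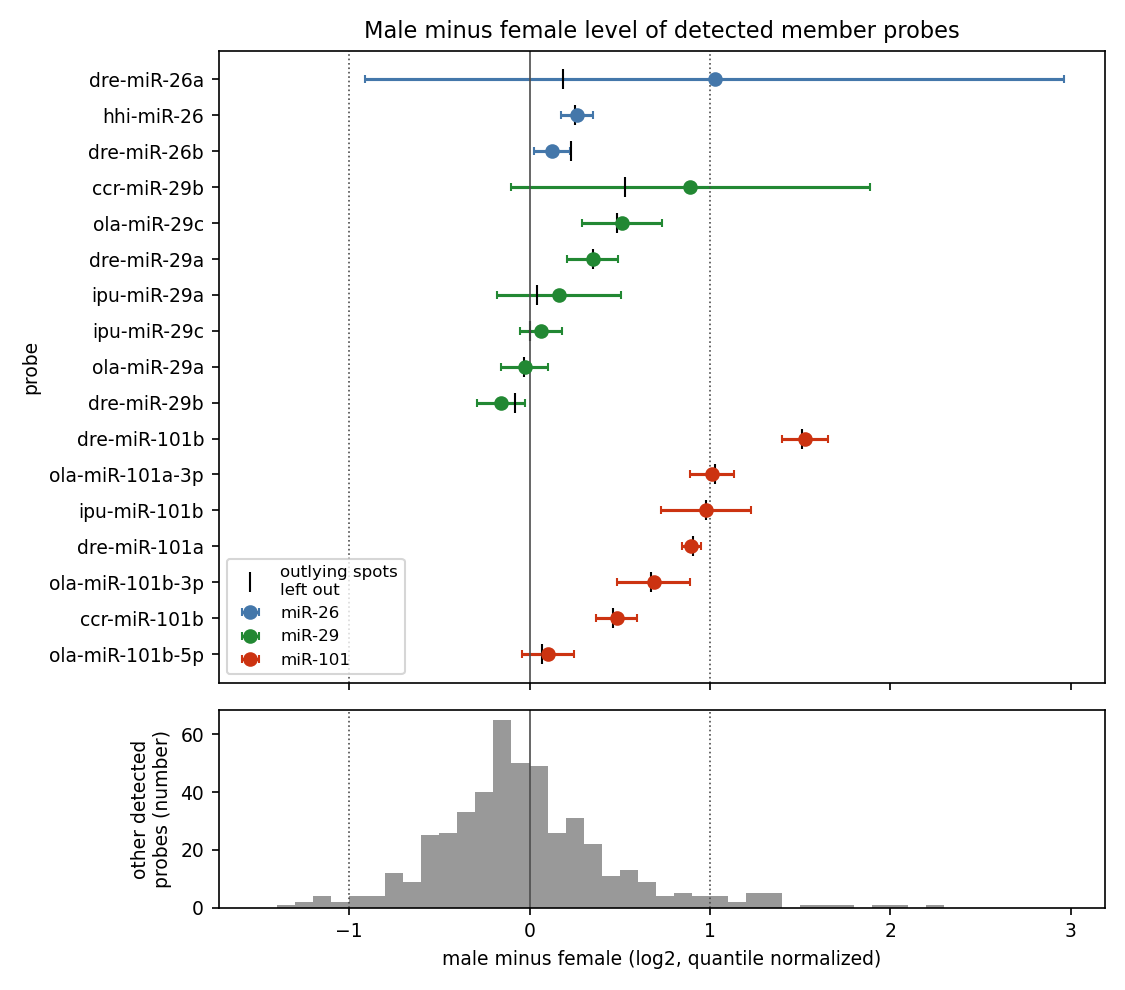
Male minus female difference (log2, quantile normalized) of the 17 detected members, with bars of 1 SD combined from the 5 spots of each array; ticks give the value with spots over 0.5 from the probe median left out. The grey histogram holds the 473 other detected probes, and dotted lines mark the size limit of 1. miR-101 probes lie from 0.10 to 1.53, with ola-miR-101b-3p and ipu-miR-29a, each detected on 1 array, drawn at their measured means, and the wide bars of dre-miR-26a and ccr-miR-29b come from single low female spots.

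miR-26 was bright in both gonads and differed little between them. hhi-miR-26 had female spots of 16307 to 18508 and male spots of 20792 to 23175, and read 14.22 ± 0.07 and 14.48 ± 0.06 in the female and male gonad. Its difference of 0.26 held without overlap of spots and was far below the limit. dre-miR-26b read 13.86 ± 0.04 and 13.99 ± 0.09, a difference of 0.12 with overlapping spots. Background subtracted and before normalization, the male to female ratios were 1.27 for hhi-miR-26 and 1.42 for dre-miR-26b, beside the median of 1.44 over the probes detected on both arrays. The sign of these small differences rests on the scaling: with 75th percentile scaling hhi-miR-26 was at -0.26 and dre-miR-26b at -0.10.

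The mean of dre-miR-26a rested on a single low spot. Its female spots read 18836, 890, 16700, 17301 and 17734, and its male spots 24102, 21736, 20952, 21408 and 20257. The low female spot set its mean at 13.39 ± 1.94 against 14.41 ± 0.09 in the male, a difference of 1.03 that failed the rule because the normalized spots overlapped. With that spot left out the difference was 0.19, near those of the other miR-26 probes. Of 3 miR-26 probes, none was past the rule.

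miR-29 probes of the AGCACCA form fell on both sides of equality. dre-miR-29b had female spots of 2771 to 3042 and male spots of 3537 to 4387, and read 11.80 ± 0.06 and 11.64 ± 0.12 in the female and male gonad, a difference of -0.16 with overlapping normalized spots. ola-miR-29a read 10.66 ± 0.08 and 10.64 ± 0.11, a difference of -0.03. dre-miR-29a read 9.93 ± 0.09 and 10.28 ± 0.11, a difference of 0.35 without overlap of spots, although its target shares 21 bases with that of ola-miR-29a. ola-miR-29c, the shortest target at 18 bases, read 6.81 ± 0.09 and 7.32 ± 0.20, a difference of 0.51.

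ccr-miR-29b holds the whole target of dre-miR-29b with 1 base more, and the probes did not read alike. Its female spots read 1468, 319, 1181, 1471 and 1536, and its male spots 2744 to 3096. The means were 10.37 ± 0.99 and 11.26 ± 0.07, a difference of 0.89. Without the low female spot the difference was 0.53, beside -0.08 for dre-miR-29b under the same setting. No miR-29 probe was past the rule in either direction.

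The channel catfish probes named miR-29 stayed near background. ipu-miR-29c read 6.75 ± 0.05 and 6.82 ± 0.10 in the female and male gonad. ipu-miR-29a was detected on the female array only (spots of 97.9 to 108), and its male mean of 6.62 ± 0.34 rests on a single spot of 169. ipu-miR-29b was well above background on neither array. No direction is read from these probes.

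Set side by side, the families differed in their medians. The median difference over detected probes was 0.90 for miR-101 (7 probes), 0.26 for miR-26 (3 probes) and 0.16 for miR-29 (7 probes), beside -0.06 over all 490 detected probes. The miR-29 median is the value of ipu-miR-29a, whose male mean rests on a single spot, and it was 0.04 with outlying spots left out. Over the 5 miR-29 probes that hold AGCACCA the median was 0.35. All 7 miR-101, all 3 miR-26 and 5 of 7 miR-29 probes lay above 0, against 43.1% of all detected probes. Of the 5 miR-29 probes that hold AGCACCA, 3 did so. The other miR-29 probes above 0 were ipu-miR-29a and ipu-miR-29c, from which no direction is read. With 75th percentile scaling, hhi-miR-26, dre-miR-26b and the dim ola-miR-101b-5p were below 0 (-0.26, -0.10 and -0.28). All male spots lay above all female spots for 6 miR-101, 1 miR-26 and 3 miR-29 probes (19.4% on the whole chip), and the reverse held for none of the 17 (23.7% on the whole chip). The difference between the families was not tested, since near copies are not replicates and each sex is 1 fish. The miR-101 median was the highest of the 3 families under all 18 settings compared, the one reported included.

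**Figure D3:**
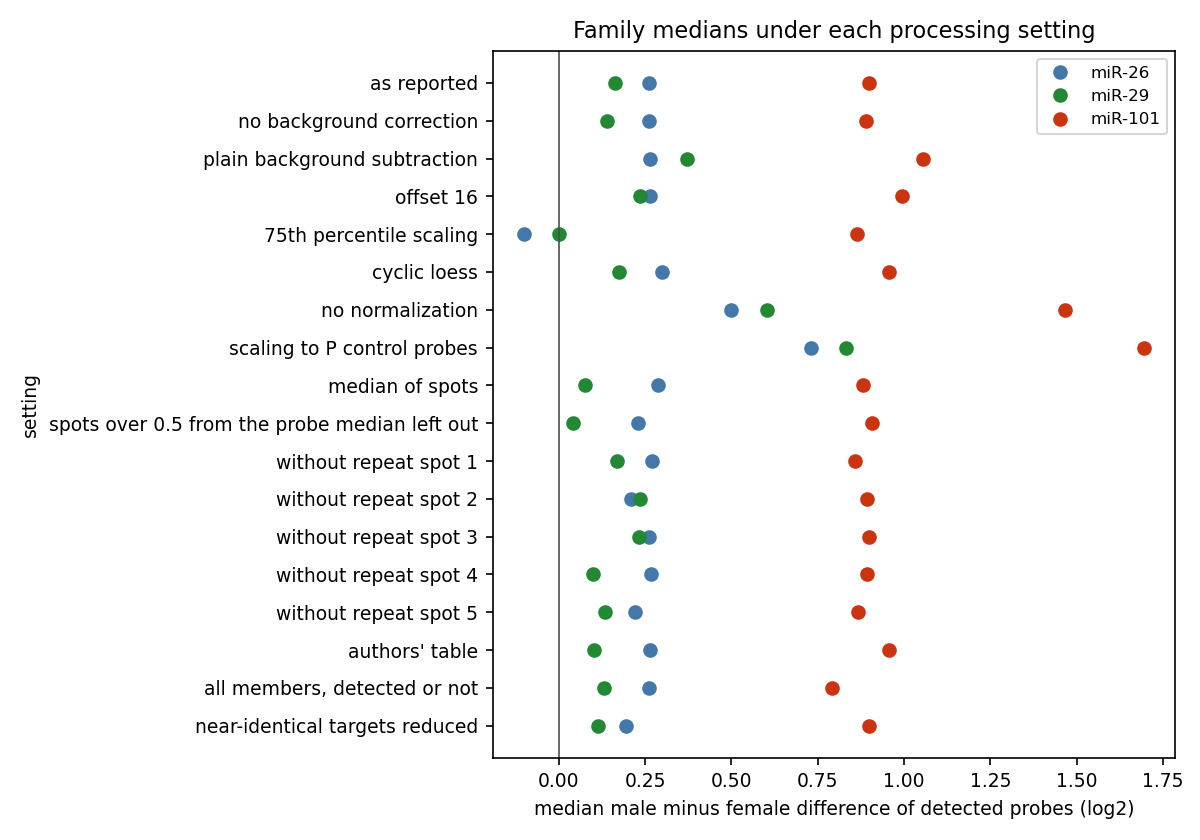
Median male minus female difference (log2) of each family, as reported and under 17 alternative settings. Medians are over detected probes, except in the setting that takes all members, detected or not. miR-101 lies from 0.79 (all members, detected or not) to 1.70, always to the right of miR-26 and miR-29. The miR-26 and miR-29 medians come close to 0 or below it with 75th percentile scaling.

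How many members counted as higher in the male depended on how the arrays were set level. Without normalization 8 members were past the rule, 5 of them miR-101 probes, against 15.1% of all detected probes. The 8 include dre-miR-26a and ccr-miR-29b, which each have a single low female spot. dre-miR-101b was past the rule under all 18 alternatives that give a call, with differences of 1.46 to 2.53. ola-miR-101a-3p was past it under 14 of 18 and lost the call without repeat spot 1, 4 or 5 and in the authors' table, with a lowest difference of 0.96. ipu-miR-101b, short of the limit as reported, was past the rule under 10 of 18, the authors' table among them.

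Brighter near relatives on the chip were counted for the member probes and for all detected probes. A relative counted where its target had 1 or 2 mismatches and its male log2 level was 1 or more higher. Copies without a mismatch and relatives brighter by less were not counted. dre-miR-101b, ipu-miR-101b, ccr-miR-101b and ola-miR-101b-3p each had 2 relatives at 1 mismatch, dre-miR-101a and ola-miR-101a-3p, whose male log2 levels were 1.06 to 4.35 higher. ola-miR-29c likewise had 2, ccr-miR-29b and dre-miR-29b. Among the 23 male-higher probes of the chip 7 (30.4%), dre-miR-101b included, had such a brighter relative at 1 or 2 mismatches. Among the other 467 detected probes 57 (12.2%) had one. Control probes with M in their names had a median male to female ratio of 2.03 before normalization and those with P in their names 0.855. The meaning of these letters is not stated in the labels or headers. ola-miR-101a-3p and dre-miR-101a had no such brighter relative, and they read 1.01 and 0.90 higher in the male. The part of cross-hybridisation in the miR-101b values was not tested.

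The 6 miR-101 targets that hold ACAGUAC were poor in G and C (28.6% to 38.1%, against a median of 45% over the chip). Of the other probes in that range, 89 were detected, with a median difference of 0.02 and 7 higher in the male. Detected non-members with 40% or more G and C had a median of -0.10, with 13 of 362 higher in the male. The 233 detected non-members in the brightness range of these miR-101 probes had a median of -0.14 and 17 male-higher probes. These ranges were set after the values were seen, and the part of base composition was not tested.

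Markers of cell types that a dissected gonad can hold moved both ways. miR-34b and miR-34c of male germ cells and ciliated cells (3 of 3 detected probes) were past the rule in the male. So were miR-122 of liver (2 of 2) and ipu-miR-202. Of 8 detected probes of the leukocyte miRNAs miR-223 and miR-142, only dre-miR-223 was past it, a call lost without outlying spots. The median of these 8 was -0.07, with 4 above 0. Of 6 detected miR-192 and miR-194 probes of kidney and gut, 4 were past the rule in the female. Marker probes for red blood cells, endothelium, smooth muscle and mesenchyme, striated muscle and skin held none past the rule, with medians from -0.40 to -0.10. The part of a differing cell make-up in the miR-101 values was not tested.

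The probes nearest in both levels to the brightest member of each family were named by their distance on the log2 scale over the 2 arrays. dre-miR-130b (10.50 in the female and 11.42 in the male, distance 0.03) and dre-let-7d (distance 0.18) lay nearest to dre-miR-101a. dre-miR-30d (distance 0.04) and dre-miR-19c (distance 0.09) lay nearest to dre-miR-29b, and dre-miR-145 (distance 0.23) and ipu-miR-145 (distance 0.30) to hhi-miR-26. With 2 arrays, nearness says only that both levels are alike.

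Other miRNAs reported to act on mRNAs of chromatin regulators in vertebrates did not move as a group. The list held 45 probes of 13 miRNAs, of which 41 were detected and none was past the rule in either direction. Their median difference was -0.06, the same as over all detected probes, with 19 of 41 above 0. Among miRNAs linked to DNA methyltransferases, ola-miR-148 read 11.69 ± 0.28 and 11.54 ± 0.15 in the female and male gonad, and ola-miR-152 10.80 ± 0.07 and 11.08 ± 0.10. The miR-148 probes lay apart, ola-miR-148 at -0.15 and dre-miR-148 at 0.57. Among those linked to EZH2, as miR-101 and miR-26 are, ccr-miR-138 read 7.59 ± 0.08 and 7.09 ± 0.09, with all 3 miR-138 probes below 0, and dre-miR-214 12.20 ± 0.08 and 12.05 ± 0.13.

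The rest of that list stayed below the limit as well. hhi-miR-449, linked to the histone deacetylase HDAC1, had the highest difference of the list at 0.88. ola-miR-137, linked to the demethylase LSD1, was detected on the female array only. Of the miRNAs linked to the Polycomb proteins BMI1 and SUZ12, ola-miR-128 differed by 0.11, dre-miR-203a by -0.29, ipu-miR-200b by -0.18 and dre-miR-429a by -0.52. The 4 miR-429 probes ran from -0.53 to 0.53, with all male spots above all female spots for 2 of them and the reverse for the other 2. dre-miR-200c differed by 0.69, or by -0.15 without outlying spots. Of those linked to HDAC4, dre-miR-1 differed by -0.26 and dre-miR-140-3p by -0.45, whereas ola-miR-1-3p differed by 0.39. The list went by name, so it held either arm of a miRNA, and dre-miR-140-5p differed by -0.58. Of the 5 detected miR-140 probes, 1 lay above 0.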

How the data were processed

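Per the labels' protocols, the small RNA fraction of total gonad RNA was polyadenylated and tagged for staining with Cy3. The authors deposited, for each array, the median intensity of 3968 spots per the file headers, uncorrected for background (empty-spot medians of 86.7 and 80.5); commas within values were removed on reading. A second deposited table has 1 intensity for each probe on a linear scale. How the authors normalized and centred it is not given, and it was used only as an alternative.

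Spots were corrected with limma 3.58.1 in R 4.3.3 (normexp over all spots, offset 50), their log2 values averaged over the 5 repeats, and the 663 miRNA probes quantile normalized. Other steps used Python 3.11.15, numpy 2.4.6 and pandas 2.3.3. The size rule was tested on simulated data. Near targets were found by alignment without gaps. All members are described; of the other list, the brightest probe of each miRNA, and any probe past the rule, is named. Members, lists and rules were chosen with earlier results of these data known. Control spots were not compared as miRNAs. With 1 array per sex, the number of arrays limits precision. No sturgeon genome was used, so no positions are given.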

Additional observations from a re-analysis of the deposited data

How the results depend on the processing

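The count of members higher in the male, 2 as reported, was 4 with plain background subtraction, 8 without normalization, 10 with scaling to the P control probes and 6 with a size limit of 0.58, and it ran from 1 to 4 when each repeat spot was left out in turn (4 without repeat spot 1, 1 without repeat spot 5). Of these settings, the share of all detected probes past the rule in the male was counted only as reported (4.69%) and without normalization (15.1%). The other male-higher counts of members listed so far therefore cannot be set against the chip. The 4 without repeat spot 1 include dre-miR-26a and ccr-miR-29b, which each have a low female spot. With 75th percentile scaling 3 members were higher in the male, beside 23 of all miRNA probes. With cyclic loess 3 members were, beside 30 of all miRNA probes. The count of members higher in the female was 0 under all 18 alternatives. The miR-26 median (0.26) was -0.10 with 75th percentile scaling, 0.50 without normalization and 0.73 with scaling to the P control probes. The miR-29 median (0.16) was 0.37 with plain background subtraction, 0.0012 with 75th percentile scaling, 0.60 without normalization and 0.83 with scaling to the P control probes. The miR-101 median (0.90) was 1.06 with plain background subtraction, 1.47 without normalization and 1.70 with scaling to the P control probes. Without normalization the arrays keep their overall difference in brightness by construction. Scaling to the P control probes, whose median background-subtracted male to female ratio was 0.855, raises the male array further. The cause of the other shifts was not tested. Over all miRNA probes, 23 male-higher and 8 female-higher probes became 74 and 0 without normalization and 30 and 4 with cyclic loess. Over the alternatives, the difference ran from 0.19 to 1.39 for dre-miR-26a and from 0.46 to 1.75 for ccr-miR-29b, which each have a low female spot, and from -0.42 to 0.68 for the dim ipu-miR-29a. No paired analysis was possible because each sex has 1 array.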
